A study of Mus musculus with 4 samples.

Results

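Runx3 occupancy at divergent promoters was examined in the Runx3 ChIP-seq of splenic CD4+ DC. A divergent promoter is taken here as a place where protein-coding genes on opposite strands start close to each other. Of the 15121 Runx3 peaks, 701 (4.64%, Wilson 95% interval 4.31 to 4.98%) had their centre within 1 kb of transcription start sites (TSSs) of at least 2 protein-coding genes on opposite strands. These 701 peaks are called divergent peaks below. They made up 12.8% of the 5486 peaks whose centre lay within 1 kb of any protein-coding TSS. The other 4785 promoter peaks lay near TSSs of 1 strand only and served for comparison, as did the 9635 peaks farther than 1 kb from every protein-coding TSS.

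The cells were freshly sorted CD11chiMHCII+CD4+ conventional DC from the spleens of unmodified mice, and each sample was labelled as coming from about 15 mice. Chromatin of 2 samples was precipitated with an in-house polyclonal antibody to Runx3, and 2 samples of total fragmented chromatin served as input. The strain was C57BL/6, except that the label of input 2 reads C57BL/7. Reads of 50 bp from fragments of about 300 bp were turned by the authors into 1 list of peaks for both precipitates against both inputs. Since both replicates were pooled, the values carry no replicate error. All intervals below are 95% intervals that cover the counting of peaks, genes or pairs only, and neighbouring peaks are not independent.

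Runx3 is a transcription factor with a Runt DNA-binding domain, which recognises TGTGGT and its complement. Many mammalian genes start back to back with another gene, and the DNA between them then serves as promoter in both directions. Such promoters are typically rich in CpG, poor in TATA boxes, and often belong to genes of DNA repair, chaperones and mitochondria.

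The label of a divergent promoter was checked against the annotation for each peak, using the closest pair of opposite TSSs within 1 kb of the centre. In 575 of the 701 divergent peaks (82.0%, 79.0 to 84.7%) the minus-strand gene started to the left of the plus-strand gene, so that the genes pointed away from each other with a gap between them. In the other 126 the first exons or gene bodies overlapped at their 5′ ends, by 144 bp at the median. The gap of the head-to-head peaks was 136 bp at the median, with quartiles of 72 and 273.5 bp and a range of 1 to 1349 bp. The divergent peaks lay at 1332 protein-coding genes, or 5.96% of all 22367, and at 657 gene pairs when only the closest pair of each peak was counted. One peak was found at 614 of these pairs, 2 peaks at 42 and 3 peaks at 1. The farther TSS of the pair lay up to 998 bp from the centre. With a limit of 500 bp the same rule found 573 peaks, and with 2 kb it found 853.

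The DNA between the start sites is shown for strong, weak and immune examples, because this gap is what both genes share. Each sequence runs from the base after the minus-strand TSS to the base before the plus-strand TSS, on the plus strand of mm9, and contains no annotated exon. Capitals mark TGTGGT (Runx), CCGGAAG (ETS factors), CCAAT (the CCAAT box) and TGACGT (the CRE core), each on either strand. These words can overlap, as in TGACGTCA, where the CRE core is read on both strands. The first sequences are the gaps of high-scoring peaks.
BC005624/Usp20, chr2:30837722-30837798: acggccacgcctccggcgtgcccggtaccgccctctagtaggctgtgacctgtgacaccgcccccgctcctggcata
Larp7/4930422G04Rik, chr3:127256267-127256406: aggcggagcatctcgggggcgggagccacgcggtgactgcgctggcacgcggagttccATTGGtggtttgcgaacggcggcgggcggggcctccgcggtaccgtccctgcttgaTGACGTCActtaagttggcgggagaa
Idh1/Pikfyve, chr1:65233054-65233323: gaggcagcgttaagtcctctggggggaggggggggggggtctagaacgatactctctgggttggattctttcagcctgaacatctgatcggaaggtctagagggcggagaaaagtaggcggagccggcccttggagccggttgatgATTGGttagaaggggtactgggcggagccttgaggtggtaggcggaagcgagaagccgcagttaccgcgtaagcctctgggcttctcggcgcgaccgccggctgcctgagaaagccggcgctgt
Rchy1/Thap6, chr5:92392095-92392358: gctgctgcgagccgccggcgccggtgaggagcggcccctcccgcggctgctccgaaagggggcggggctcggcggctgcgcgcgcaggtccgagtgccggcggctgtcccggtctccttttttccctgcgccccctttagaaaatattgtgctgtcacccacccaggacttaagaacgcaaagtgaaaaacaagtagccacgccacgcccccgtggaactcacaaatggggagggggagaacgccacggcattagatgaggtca
The next sequence has TGTGGT close to the plus-strand start, the one after it lies at an immune receptor gene, and the third is the histone pair with 1 of the lowest scores.
Sharpin/Maf1, chr15:76181542-76181723: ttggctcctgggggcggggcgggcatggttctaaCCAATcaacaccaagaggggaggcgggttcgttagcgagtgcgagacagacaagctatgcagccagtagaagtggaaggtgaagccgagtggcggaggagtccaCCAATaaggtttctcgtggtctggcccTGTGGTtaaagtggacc
Park7/Tnfrsf9, chr4:150288547-150288670: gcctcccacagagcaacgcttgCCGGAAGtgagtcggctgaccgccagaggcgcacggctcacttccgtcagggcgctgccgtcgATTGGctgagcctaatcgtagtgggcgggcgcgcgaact
Hist1h2ak/Hist1h2bn, chr13:21845777-21845991: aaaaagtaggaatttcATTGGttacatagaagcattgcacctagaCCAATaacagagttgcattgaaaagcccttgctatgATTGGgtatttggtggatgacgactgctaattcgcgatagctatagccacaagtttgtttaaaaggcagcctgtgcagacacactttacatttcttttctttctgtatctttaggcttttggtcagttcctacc
The last 3 are the shortest of the searched gaps with TGTGGT beside divergent peaks, chosen after the sequences were searched.
Osgep/Apex1, chr14:51544569-51544642: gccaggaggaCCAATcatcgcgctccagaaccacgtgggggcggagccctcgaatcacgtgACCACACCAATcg
Cyb5d2/Zzef1, chr11:72609645-72609727: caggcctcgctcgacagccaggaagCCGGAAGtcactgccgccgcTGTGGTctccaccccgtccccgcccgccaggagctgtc
Hnrnpk/Rmi1, chr13:58503875-58503957: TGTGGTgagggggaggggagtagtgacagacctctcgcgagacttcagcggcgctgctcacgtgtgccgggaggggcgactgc
None of the 4 gaps of high-scoring peaks held TGTGGT, but the peaks at BC005624/Usp20 and Larp7/4930422G04Rik each held 1 outside the gap, and the peak at Rchy1/Thap6 ended before its gap began. The Larp7/4930422G04Rik gap held a full TGACGTCA palindrome and a CCAAT box. The gap of the histone pair was the only AT-rich one shown, with 39.5% GC and 3 CCAAT boxes. At Osgep/Apex1, which starts a tRNA-modifying enzyme and the main abasic-site endonuclease of base excision repair, TGTGGT read on the minus strand abutted a CCAAT box. This word lay outside the Osgep/Apex1 peak at chr14:51544161-51544574, which had a score of 4.23 and held no TGTGGT. The search covered 446 stretches of gap with at least 20 exon-free bases. It left out a chromosome that is named with the processing. Of these stretches, which were cut to their central 300 bp where longer, 29 (6.50%) held TGTGGT, 185 (41.5%) CCAAT, 64 (14.3%) CCGGAAG and 48 (10.8%) TGACGT.

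Peak scores at divergent promoters were close to those elsewhere, but the highest scores of the list were not among them. The score is the value that the peak caller wrote for each peak, in a unit that the sources used here do not state, and was used only to rank and compare peaks within the list. The median score was 12.7 (12.0 to 14.2) at divergent promoters, 12.4 (12.0 to 12.7) at promoters of 1 strand and 12.0 (12.0 to 12.7) over 1 kb from a TSS. The upper quartile of the list, 23.2, was reached by 181 divergent peaks (25.8%), beside 25.4% of all peaks. That share was higher by 1.56 points than at promoters of 1 strand (interval of the difference -1.78 to 5.13). Scores of at least 50 were found in 35 divergent peaks (4.99%, 3.61 to 6.86%), in 6.00% of promoter peaks of 1 strand and in 7.73% of peaks over 1 kb from a TSS. The difference was -1.01 points (-2.56 to 0.973) from the promoters of 1 strand and -2.74 points (-4.23 to -0.798) from the peaks over 1 kb away. No divergent peak reached a score of 100, and the Wilson interval of 0 of 701 reaches up to 0.545%. At promoters of 1 strand 36 peaks did (0.752%, 0.544 to 1.04%), and over 1 kb from a TSS 126 did (1.31%). The difference from promoters of 1 strand was -0.752 points (-1.04 to -0.169).

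**Figure D1:**
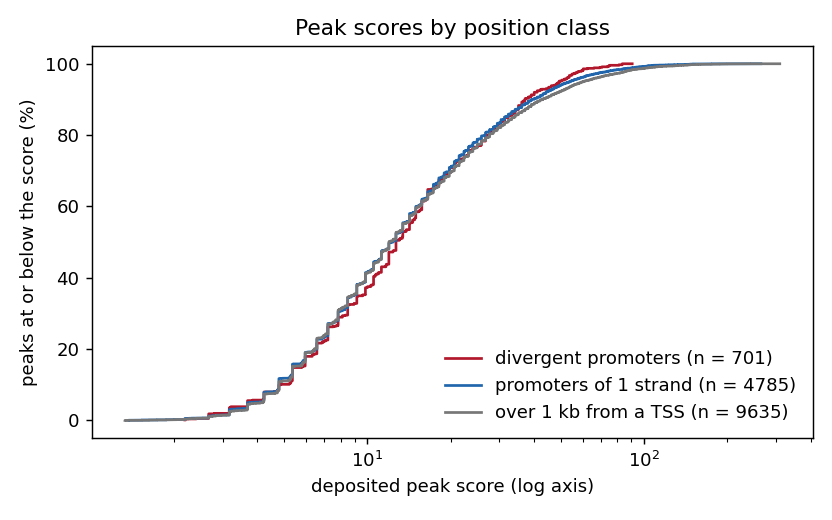
Cumulative share of peaks (vertical axis, percent) at or below each deposited score (horizontal log axis) for the 701 divergent peaks, the 4785 promoter peaks of 1 strand and the 9635 peaks over 1 kb from a TSS. The 3 curves run close together around their medians of 12.7, 12.4 and 12.0, and the curve of the divergent peaks ends at 90.6 while the others reach 264 and 309.

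Divergent peaks were wider, with a median of 458 bp (441 to 471) against 426 bp (420 to 432) at promoters of 1 strand and 396 bp (393 to 400) farther away. Among divergent peaks, width and score rose together (Spearman rho = 0.666 over 701 peaks), as in the whole list (0.712). Score bore little relation to the gap between the genes (rho = 0.0116 over 575 peaks). By gap, the median score was 12.7 (11.2 to 14.6) at 1 to 100 bp, 13.4 (11.2 to 15.0) at 101 to 300 bp, 15.7 (13.4 to 19.6) at 301 to 500 bp and 12.0 (10.5 to 14.8) above 500 bp.

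The 10 highest divergent peaks lay at genes of several kinds and scored between 65.8 and 90.6. The highest, at rank 226 of the list, was a 566 bp peak at chr15:88649492-88650057 with a score of 90.6, between Alg12, a mannosyltransferase of N-glycan assembly, and Creld2, a gene of the endoplasmic reticulum stress response. Its centre lay 26 bp from the Alg12 start and 302 bp from the Creld2 start, outside any gene. Another pair of peaks shared the next score of 83.4. At Ccdc77/Kdm5a, where Kdm5a encodes a histone H3K4 demethylase, a 959 bp peak covered both TSSs 84 bp apart. At Ggt7/Acss2, where Acss2 encodes an acetyl-CoA synthetase, the 5′ ends overlapped by 162 bp. The peak at Rchy1/Thap6, which starts a RING-type ubiquitin ligase and a THAP-domain gene, scored 81.1 and lay within the Rchy1 gene, 566 bp from its TSS. The peak at BC005624/Usp20, where Usp20 encodes a deubiquitinating enzyme, scored 75.1, with its centre 9 bp from the BC005624 start. The score was 74.7 at Erich1/Gm10699 and 73.9 at Larp7/4930422G04Rik, where Larp7 binds the 7SK RNA. At Idh1/Pikfyve, a cytosolic isocitrate dehydrogenase and a phosphoinositide kinase, the peak scored 65.8 and its centre lay in the gap, 150 bp and 121 bp from the starts. Of these 10 peaks, 5 held no TGTGGT anywhere, beside 501 of all 701 divergent peaks.

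At the low end were narrow peaks, although other narrow peaks scored higher. The histone pair Hist1h2ak/Hist1h2bn scored 2.41 over 253 bp, Gm17509/Emb 2.20 over 296 bp and Cept1/Dram2, with genes of phospholipid synthesis and of autophagy, 2.19 over 253 bp. All 3 lacked TGTGGT, as did 501 of all 701 divergent peaks.

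Several pairs carried more than 1 peak. Zfp597/Nat15, a zinc finger gene and an N-terminal acetyltransferase gene, carried 3, with scores of 12.0, 11.0 and 10.5, of which 2 shared the same closest TSSs, 107 bp apart. At Sphk2/Rpl18, a sphingosine kinase and a ribosomal protein of the large subunit, peaks scored 69.3 and 32.2, the former over TSSs 69 bp apart and the latter over TSSs 250 bp apart. At Tmem59 and its partner 2210012G02Rik a score of 70.4 stood beside 4.2 farther into Tmem59. At Mrpl18/Tcp1, a mitochondrial ribosomal protein and a subunit of the CCT chaperonin, scores were 60.0 and 5.79, and at Mrpl41/Pnpla7 they were 47.3 and 23.3. In 83 of the 701 divergent peaks another peak centre lay within 1000 bp.

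Of 32 antigen presentation genes, Psme2 and Tap2 (6.25%) had a head-to-head partner within 1000 bp, beside 9.45% of 22225 protein-coding symbols. Both had a peak within 1 kb of a TSS, as did 53.8% of all head-to-head symbols and 22 of the 32 genes of the list. With overlapping starts included, 5 of the 32 (15.6%, beside 5.95% of all symbols) lay at divergent peaks, namely Tap1, Tap2, Psmb9, Psme2 and Pdia3. The 5 peaks at them had scores of 3.69 to 19.8 and a median of 6.32. None held TGTGGT, which was present in 28.5% of all divergent peaks. The peak at Psmb9/Tap1, an immunoproteasome subunit and a subunit of the peptide transporter, scored 3.69 at chr17:34324210-34324634, where the 5′ ends of the genes overlapped. Tap2, the other subunit of the transporter, shared a peak of 19.8 with the start of Gm20496. Psme2, a subunit of the proteasome activator PA28, and Rnf31, the catalytic subunit of the linear ubiquitin ligase, had 595 bp between them, with a peak of 18.1 centred 31 bp from the Rnf31 start and one of 3.69 within a coding exon of Psme2. Catsper2/Pdia3, where Pdia3 encodes a thiol oxidoreductase of the peptide loading complex, had a peak of 6.32.

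The leukocyte list, which was matched by the beginnings of gene symbols, had 402 genes, of which 8 (1.99%, beside 5.95% of all symbols) lay at divergent peaks. The highest score was 51.5 at Bcl2l12/Irf3, where Irf3 is a transcription factor of the interferon response, with the centre 16 bp from the Bcl2l12 start. Nfkbib, an inhibitor of NF-kappaB, shared a peak of 37.1 with the deacetylase gene Sirt2, and this peak held 2 TGTGGT. Tnfrsf9, the costimulatory receptor 4-1BB, shared one of 34.7 with Park7. Ccr9, a chemokine receptor, and Ccl25, its ligand, both lay at weak divergent peaks. The Slc6a20a/Ccr9 peak scored 9.16 and the Elavl1/Ccl25 peak 7.20. Itgb1bp1/Cpsf3 scored 24.9 and Itgb3bp/Efcab7 19.8, but these Itgb-named genes encode binding partners of integrins rather than integrins. A peak of 7.84 at Atf5/Nup62 was also near the start of Il4i1. Of the 402 genes 17 (4.23%, beside 9.45% of all symbols) had a head-to-head partner, and 6 of these (35.3%, beside 53.8%) had a peak.

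Among the other lists, which were also matched by the beginnings of symbols, DNA repair and replication genes were often head-to-head and often occupied. Of 113 such genes 31 (27.4%) had a head-to-head partner within 1000 bp, against 9.45% of all symbols, and 22 of the 31 (71.0%, beside 53.8%) had a peak within 1 kb of a TSS. Over the whole list, with or without a partner, 69 of 113 genes (61.1%) had a peak, beside 24.9% of all protein-coding genes. The origin recognition genes Orc1 and Orc6 scored highest, with 41.1 at Prpf38a/Orc1 and 36.6 at Vps35/Orc6. The double-strand break repair genes Xrcc3, Xrcc4 and Xrcc6 had scores of 25.8, 25.8 and 19.8. Mcm4 and Prkdc, a replicative helicase subunit and the DNA-dependent protein kinase, start 466 bp apart and had 1 peak of 12.0 between their starts. Over the 22 peaks of the list the median score was 16.4.

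Of all symbols 9.45% had a head-to-head partner, and 53.8% of these had a peak. Chaperone genes had a partner in 19 of 72 cases (26.4%), and 11 of the 19 (57.9%) had a peak. Hsp90b1, the endoplasmic reticulum member of the HSP90 family, had a score of 60.2, and the CCT chaperonin genes Cct7, Cct3 and Cct5 had 48, 34.2 and 29.5. The median of the 11 chaperone peaks was 23.2, beside 12.7 over all divergent peaks. Of the 11 peaks 6 were in the upper quartile, beside 25.8% of all divergent peaks. Of the respiratory chain genes 29 of 93 (31.2%) had a partner, of which 13 (44.8%) had a peak. Over the 17 divergent peaks of this list, 13 of them head-to-head, the median score was 7.20 and none was in the upper quartile. The highest was 17.3 at Sdhaf1, which was matched by its symbol and whose 5′ end overlaps that of its partner. Mitochondrial ribosome genes had a partner in 23 of 77 cases (29.9%), 14 of them (60.9%) with a peak. Over the 18 divergent peaks of this list, 14 of them head-to-head, the median was 17.2. Mrpl49, which starts opposite the ribosomal gene Fau, had 49. Of the cytoplasmic ribosome genes 13 of 150 (8.67%) had a partner, and 12 of the 13 (92.3%) had a peak. The symbols of this list include 10 of ribosomal S6 kinases, 1 of which is among the 13. Rpl36al/Mgat2 scored 32.3 and Med22/Rpl7a 24.1, beside the peaks at Rpl18.

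Histone genes were the list with the largest head-to-head share of those examined, at 27 of 67 (40.3%). Only 9 of the 27 (33.3%, beside 53.8% of all head-to-head symbols) had a peak. Their 5 divergent peaks had a median score of 4.79, none of them had a CpG-rich window, and the highest, at Hist1h2bh/Hist1h3f, scored 22.3. Of the transcription machinery genes 25 of 103 (24.3%) had a partner and 17 of the 25 (68.0%) had a peak, with 50.4 at Gtf2e1/Rabl3. For zinc finger genes the numbers were 22 of 367 and 15 of 22, and for proteasome genes 9 of 50 and 4 of 9. As a negative control, 4 of 1181 olfactory receptor, keratin and crystallin genes (0.339%) had a peak. Only 1 of the 1181 had a partner, and it had no peak, which is too few to give a share. These counts describe lists of unequal CpG content and expression, and their part in the counts was not tested.

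**Figure D2:**
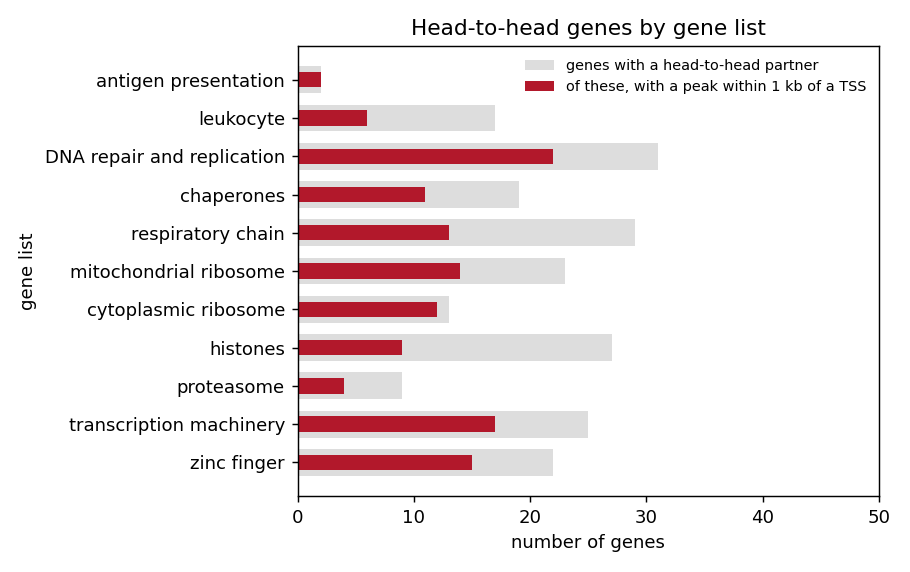
Number of genes with a head-to-head partner whose TSS lies at most 1000 bp away (grey bars) and the number of these with a Runx3 peak centred within 1 kb of a TSS (red bars) for 11 gene lists. The red bar nearly fills the grey one for the cytoplasmic ribosome (12 of 13) and covers 9 of 27 for histones.

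The share of genes with a Runx3 peak was higher where a head-to-head partner was near. Of 2111 genes with such a partner within 1000 bp, 1137 (53.9%, 51.7 to 56.0%) had a peak centred within 1 kb of a TSS, against 4441 of 20256 other protein-coding genes (21.9%, 21.4 to 22.5%). The difference was 31.9 points (29.7 to 34.1). Partners share their peaks, so each pair was also counted once, by the 1 kb on either side of the midpoint between its TSSs, and each other gene once, by its outermost TSS. This comparison was added after the data had been seen. A peak was found at 552 of 1071 pairs (51.5%, 48.5 to 54.5%) and at 3985 of 20256 other genes (19.7%, 19.1 to 20.2%), a difference of 31.9 points (28.8 to 34.9).

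CpG content moved with this difference. A 300 bp window was called CpG-rich when its GC content was at least 50% and its observed-to-expected CpG ratio at least 0.6. Among CpG-rich windows the pairs had a peak in 55.8% and the other genes in 36.0%, and the difference fell to 19.7 points (16.3 to 23.2). The share of genes expressed in these cells was not analysed here.

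Occupancy varied with the gap. A peak within 1 kb of the midpoint was found at 219 of 469 head-to-head pairs with a gap of 1 to 100 bp (46.7%, 42.2 to 51.2%) and at 226 of 407 with 101 to 300 bp (55.5%, 50.7 to 60.3%). The closest pairs differed from the next class by -8.83 points (-15.4 to -2.20). The share was 54.5% at 301 to 500 bp, 55.2% at 501 to 1000 bp and 35.8% (28.2 to 44.2%) at 1001 to 2000 bp. The window was fixed at 1 kb on either side of the midpoint, so at wide gaps it reached less far beyond the TSSs. The part of this limit in the lower share was not tested. Midpoints were CpG-rich in 90.2% of pairs at 1 to 100 bp and in 10.4% at 1001 to 2000 bp. In pairs with a CpG-rich midpoint the share with a peak was 48.7% (44.0 to 53.5%) at 1 to 100 bp and 62.5% (57.2 to 67.5%) at 101 to 300 bp. Pairs with another midpoint had 28.3% (17.3 to 42.5%) and 22.5% (14.4 to 33.5%) at the same gaps. Of all annotated pairs up to 2000 bp apart, 552 of 1205 head-to-head pairs (45.8%) and 126 of 344 overlapping pairs (36.6%) had a divergent peak, a difference of 9.18 points (3.27 to 14.9).

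**Figure D3:**
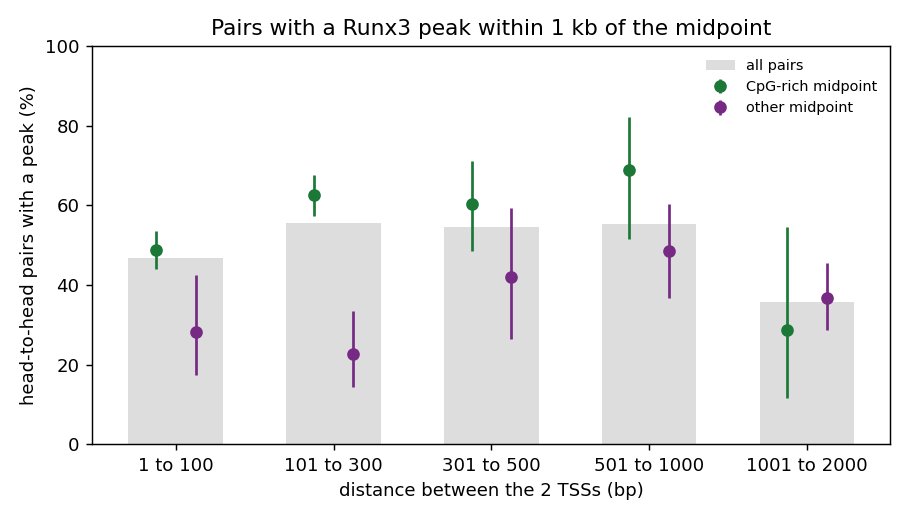
Share of head-to-head pairs with a Runx3 peak centre within 1 kb of the midpoint (vertical axis, percent) by the distance between the TSSs, for all pairs (bars) and for pairs with a CpG-rich or other midpoint (points with Wilson 95% intervals). The bars stay between 46.7% and 55.5% up to 1000 bp and drop to 35.8% beyond, and the points of CpG-rich midpoints lie above the others up to 1000 bp.

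The place of the centres is given as a description, since the peaks were chosen by the distance of their centres to both TSSs. In 220 of the 575 head-to-head peaks (38.3%, 34.4 to 42.3%) the centre lay in the gap, and the gap made up 14.4% on average of the positions from which both TSSs are within 1 kb. At gaps of 1 to 100 bp the share was 14.8% (10.8 to 20.03%), where the gap made up 2.85% of these positions. At 101 to 300 bp it was 46.2% (39.8 to 52.7%), where the gap made up 10.2% of these positions. At 301 to 500 bp it was 64.4% (51.7 to 75.4%), where the gap made up 23.4%. At wider gaps it was 71.0% (58.7 to 80.8%), where the gap made up 63.8%, within the interval of the share. Promoter peaks of 1 strand were also close to their TSS, so a spread of centres over all these positions is no baseline for chance. The centre was 89.0 bp from the nearer TSS at the median. The peak covered both TSSs in 371 of the 701 divergent peaks (52.9%, 49.2 to 56.6%). By the annotation, 333 centres (47.5%) fell in untranslated parts of protein-coding exons, 71 (10.1%) in coding exons, 108 (15.4%) in introns and 189 (27%) outside protein-coding genes. At promoters of 1 strand these shares were 25.5%, 5.41%, 23.7% and 45.4%. The rule asks for TSSs of at least 2 genes near the centre, which itself brings more exons close to it.

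Outside the gap, centres were more often on the side of the minus-strand gene. This side held 206 centres (35.8%, 32.0 to 39.8%) and the plus-strand side 149 (25.9%, 22.5 to 29.6%), and the median centre lay 24.0 bp (8.50 to 39.5) to the left of the midpoint. A shift in the same direction was measured away from these promoters. In the 3932 peaks over 1 kb from a TSS with exactly 1 TGTGGT, this word lay at a median of 21.5 bp (19.5 to 23.5) to the right of the centre. At promoters of 1 strand the centre lay 59.0 bp to the left of the nearest TSS for plus-strand genes and 22 bp to the right for minus-strand genes. In the 172 divergent peaks with 1 TGTGGT the offset was 1.5 bp (-14.5 to 19.5). When all centres were moved to the right by 22 bp, a step added after the data had been seen, the minus side held 178 head-to-head centres, the plus side 175 and the gap 222. The share of minus-side centres among those outside the gap was then 50.4% (45.2 to 55.6%), compared with 58.0% (52.8 to 63.0%) as deposited. The share in the gap was 38.6% after the move. A move of about the median distance to the midpoint evens the sides by its construction, and whether the offset seen elsewhere applies to the divergent peaks was not tested.

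**Figure D4:**
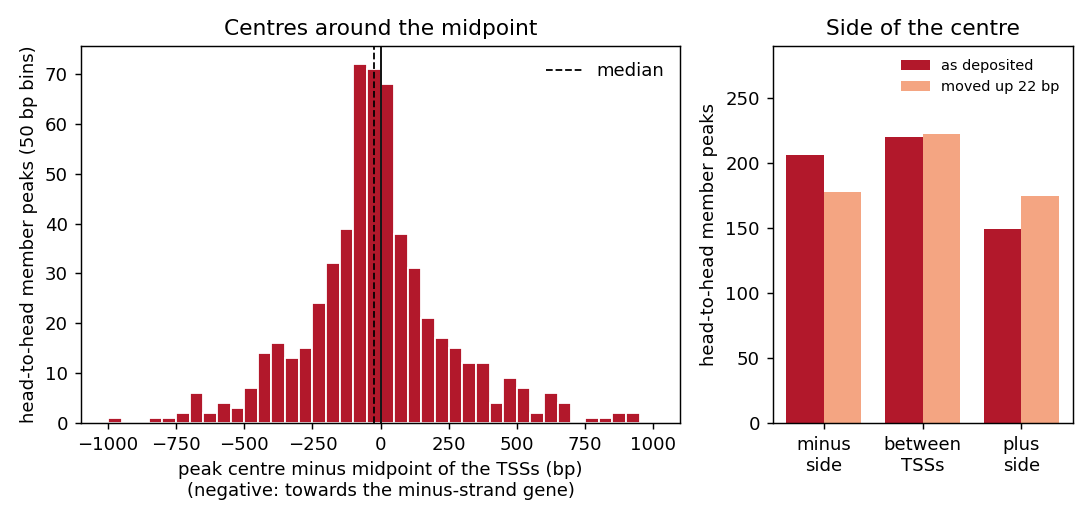
Left, number of head-to-head divergent peaks by the distance of the peak centre from the midpoint of the TSSs in 50 bp bins, with the median as a dashed line. Right, number of centres on the minus-strand side, between the TSSs and on the plus-strand side, as deposited (206, 220 and 149) and with centres moved to the right by 22 bp (178, 222 and 175).

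Most divergent peaks lay in CpG-rich DNA. The 300 bp window around the centre was CpG-rich in 598 of 701 (85.3%, 82.5 to 87.7%), against 67.5% at promoters of 1 strand and 4.70% over 1 kb from a TSS. The difference from promoters of 1 strand was 17.8 points (14.7 to 20.6). Median GC content was 62.0%, against 60.7% and 48%, and the median CpG ratio was 0.833, against 0.763 and 0.231.

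The Runx word TGTGGT was present in the 300 bp window of 152 (21.7%, 18.8 to 24.9%), beside 47.9% of all peaks, 27.1% of promoter peaks of 1 strand and 60.1% of peaks over 1 kb from a TSS. It was present in 15.7% of 300 bp windows at all protein-coding TSSs. The looser word TGNGGT was present in 57.2% of divergent windows (53.5 to 60.8%), 64.1% at promoters of 1 strand, 75.5% of all peaks and 45.7% at all TSSs. For TGTGGT, divergent peaks were different from promoters of 1 strand by -5.46 points (-8.63 to -2.03). This did not hold within CpG-rich windows, where the shares were 19.9% and 18% and the difference was 1.95 points (-1.35 to 5.57). Over the whole peak, TGTGGT occurred in 200 divergent peaks (28.5%), beside 54% of all peaks. These are exact matches to the word. The paper reports the Runx motif in a higher share of its bound regions, with motifs found by de novo discovery, and these measures were not compared. The closest one lay 75.5 bp from the centre at the median, against 65.5 bp at promoters of 1 strand and 41.5 bp over 1 kb from a TSS.

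By number of Runx words, the median score was 12.0 (11.2 to 13.4) in the 501 divergent peaks without TGTGGT, 14.8 (12.7 to 16.5) in the 172 with 1 and 18.5 (12.7 to 35.2) in the 26 with 2, and the intervals of neighbouring classes overlapped. Median width was 436, 513 and 613 bp in the same order, so that a wider peak also offered more sequence, and the parts of width and word in the score were not separated. The 2 peaks with 3 words were at 2600006K01Rik/Cercam, with a score of 53.7, and Tmem67/C430048L16Rik, with 12.0. Among those with 2 words were Sphk2/Rpl18, Sharpin/Maf1 with a score of 60.2 and 1810024B03Rik/Snrnp200 with 57.5. Sharpin encodes a subunit of the linear ubiquitin ligase, Maf1 a repressor of RNA polymerase III and Snrnp200 a spliceosomal helicase.

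Words of general promoter factors were more common at divergent peaks. CCGGAAG was found in 27.1% of windows (23.9 to 30.5%) against 17.6% at promoters of 1 strand, a difference of 9.53 points (6.18 to 13.1), and in CpG-rich windows the difference was 7.79 points (3.94 to 11.9). The word was at 10.6% of all protein-coding TSSs. TGACGT was found in 16.1% against 12.1%, CCAAT in 40.9% against 35.4%, AAGATGG (YY1) in 10.1% against 7.23% and GCGCATG (NRF1) in 7.42% against 5.52%. Each of these 4 intervals of the difference lay above 0, but none did within CpG-rich windows. At all TSSs these 4 words were present in 7.82%, 34.8%, 7.00% and 4.37%. GGGCGG (SP factors), present at 40.3% of all TSSs, was found in 64.3% against 56.0%, whereas in CpG-rich windows the difference was -2.63 points (-6.77 to 1.32). TATAAA was found in 4.42% against 5.66%, with a difference of -1.24 points (-2.70 to 0.650), and at 11.2% of all TSSs.

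Words of myeloid and activation-related factors were less common. GAGGAAG (PU.1) was found in 11.3% of divergent windows against 18.3% at promoters of 1 strand and 32.4% over 1 kb from a TSS, with 13.3% at all TSSs. The difference from promoters of 1 strand was -7.02 points (-9.43 to -4.25), and -3.63 points (-6.19 to -0.656) in CpG-rich windows. TGANTCA (AP-1) was found in 2.43% against 5.14% and 12.7%, with 6.6% at all TSSs, and the difference was -2.72 points (-3.84 to -1.17). In CpG-rich windows it was -1.60 points (-2.66 to -0.0603).

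Head-to-head promoters with a peak also differed from those without one. Windows of 300 bp around the midpoints of the 1071 pairs up to 1000 bp apart were compared. The place of these windows does not depend on where the peak was centred. The split of the pairs does, since it asks for a peak centre within 1 kb of the midpoint. CCAAT was found at 45.5% of the 552 midpoints with a peak and at 35.3% of the 519 without, a difference of 10.2 points (4.33 to 16.0). TGACGT was found at 17.9% and 12.5%, a difference of 5.41 points (1.10 to 9.69). TGTGGT was found at 11.8% and 8.09%, a difference of 3.68 points (0.0769 to 7.28). The longer Runx word TGTGGTT was found at 3.08% and 2.31%, a difference of 0.768 points (-1.27 to 2.82), an interval that includes 0. The differences were 5.40 points (0.0373 to 10.7) for CCGGAAG and 6.06 points (0.360 to 11.7) for GGGCGG. For the PU.1, AP-1, YY1, NRF1 and TATA words the interval included 0. Midpoints were not separated by CpG content here.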

How the data were processed

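Runx3 ChIP-seq of splenic CD4+ DC comprised 2 precipitates and 2 inputs. Reads of 50 bp that aligned to 1 place in mm9 were kept by the authors, who called peaks on the pooled samples. The submitters' processing notes name CASAVA 1.8, Bowtie and MACS2, and other versions and the calling threshold are not given in the sources used here. The deposited list gives a start, an end and a score for each peak. The unit of this deposited score is not stated. Depth per replicate was not analysed here, and a missing peak means only that none was called.

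Sequence came from NCBIM37, the assembly of mm9, and genes from GENCODE M1. Positions count from 1. Peaks were placed by their centre, and every transcript of a protein-coding gene gave a TSS. The divergent peaks, gene lists, words and comparisons were chosen with earlier results of these data known. Named pairs were those of the 10 highest and 3 lowest scores, the 5 pairs with the most peaks, the 5 peaks with the most TGTGGT, and pairs with a gene of the antigen presentation or leukocyte lists. Genes named for the other lists and the last 3 printed sequences were chosen after their values had been seen. The search of gap sequences left out chromosome 18, which held 13 of the divergent peaks. Shares have Wilson intervals, differences of shares Newcombe intervals and medians order-statistic intervals, all at 95%. No interval was adjusted for the number of words or comparisons. No test was made, since peaks are not replicates. The functions were tested on simulated data. Tables were made with pandas 2.3.3 under Python 3.11.15, intervals with scipy 1.17.1 and numpy 2.4.6, and plots with matplotlib 3.10.9.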

Additional observations from a re-analysis of the deposited data

How the results depend on the processing

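The number of divergent peaks was 371 with scores at or above the list median and 181 at or above the upper quartile, and between 573 and 853 under the other rules tried. The difference in TGTGGT share between divergent peaks and promoters of 1 strand was -5.46 points, -9.35 points at or above the upper quartile, and of opposite sign at 1.95 points in CpG-rich windows, with an interval that includes 0. The difference in the share of genes with a peak, 31.9 points, was 29.3 with partners up to 2000 bp away, 9.23 with peaks of the upper quartile and 19.1 for genes with a CpG-rich TSS window. The share of head-to-head centres in the gap was 42.8% with 1 TSS per gene. The difference in median score stayed between 0.250 and 1.05 in the alternatives tried. Moving the centres by 22 bp and counting 1 window per pair or gene were chosen after seeing the data. No paired analysis was possible because the list is 1 call on pooled samples with no value per replicate, and leaving out a replicate was not possible for the same reason. TSSs are those of the annotation and not of these cells. Depth limits the weak end of the list, and the causes of these changes were not tested.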
